A study of Mus musculus with 6 samples.

Results

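Interferon-stimulated genes are the genes that vertebrate cells switch on when they sense interferon, and their products block viruses and other intracellular pathogens. They were described here in fibroblasts grown from mouse embryos (MEFs) that lack or carry ataxin-3, a deubiquitinating enzyme encoded by Atxn3. A list of 48 such genes was taken, chosen with earlier results of these data known, so the list as a whole was described and not tested. Each gene was represented by the brightest probe set naming it alone, and 46 of the 48 could be measured among 18193 genes so represented. Isg15, the ubiquitin-like modifier, was read only by a probe set that also names another gene and was left out, and Ifi44 was not analysed here. The comparison was between 3 Atxn3-KO and 3 Atxn3-WT MEF samples, with 1 Affymetrix GeneChip mouse genome array each. The Atxn3-KO cells come from mice in which Atxn3 was knocked out, and the Atxn3-WT cells from mice with intact Atxn3. Both were kept in the same serum-containing medium, and the labels and methods name no interferon, virus or other stimulus for these arrays. The methods call the 3 samples of each genotype biological replicates. The strain, the embryonic age and whether each replicate came from its own embryo are not given in the sources used here, so p-values measure the spread between these 6 samples.

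Interferons are secreted proteins that bind receptors on the same or neighbouring cells. The receptors activate JAK kinases, which phosphorylate STAT proteins. A STAT complex that holds IRF9 binds interferon-stimulated response elements (ISREs) in the promoters of many of these genes, while STAT dimers bind gamma-activated sites (GAS). Fibroblasts are a classical cell type for studying this response, and MEFs can both secrete interferon beta and respond to it. Many of the genes are also transcribed without added interferon.

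The deposited values had been normalized in a way that makes the array distributions alike, so they cannot show whether raw signal was equal. On the log2 scale, medians were 5.97 to 5.99 on the Atxn3-KO arrays and 5.98 to 6.002 on the Atxn3-WT arrays. The 25th percentiles were 4.36 to 4.39 over all 6. The brightest Atxn3 probe set read 3.60, 3.43 and 3.73 in the Atxn3-KO samples, against 6.53, 6.81 and 6.66 in the Atxn3-WT samples, so the labels and the targeted gene go together. Of 12 fibroblast markers, 3 were higher and 4 lower in Atxn3-KO MEFs, where 17.1% of all genes were higher and 14.7% lower. Fbln2 (log2 fold change 0.86), Lum (0.60, under the median of every array) and Pdgfrb (0.25) were higher. Col3a1 (-0.28), Pdgfra (-0.28), Col1a2 (-0.26) and S100a4 (-0.19) were lower. The mean level of the 12 ran from 12.03 to 12.07 on the Atxn3-KO arrays and from 12.01 to 12.03 on the Atxn3-WT arrays. Markers of leukocytes (0 of 11), of plasmacytoid dendritic cells (0 of 6) and of endothelium (0 of 8) did not pass an adjusted p of 0.05 in limma, with 3, 2 and 0 of them at an unadjusted p under 0.05. Those 3 leukocyte markers, Cd68 (log2 fold change 0.24), Lyz2 (0.16) and Tyrobp (0.14), were all higher in Atxn3-KO MEFs. Of the 2 dendritic cell markers, Spib was higher (0.30) and Tcf4 lower (-0.24). Ptprc, which marks all leukocytes, had means of 3.57 in Atxn3-KO MEFs and 3.56 in Atxn3-WT MEFs, which is under the 25th percentile on each of the 6 arrays. The leukocyte markers averaged 5.38 to 5.45 on the Atxn3-KO arrays and 5.36 to 5.41 on the Atxn3-WT arrays. Among 8 epithelial markers, Krt18 (log2 fold change 1.27, under the median of every array) and Epcam (0.38) were higher in Atxn3-KO MEFs. Among 8 neural markers, Map2 (1.55) and Sox2 (0.25) were higher and Tubb3 (-0.95) and Nes (-0.51) lower. Sox2 lay under the 25th percentile of every array. The part of these markers in the results that follow was not tested.

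Of the 46 measured interferon-stimulated genes, 33 were higher and 1 was lower in Atxn3-KO MEFs than in Atxn3-WT MEFs at an adjusted p under 0.05, and 12 did not pass. The 33 make 71.7% of the measured members, beside 17.1% of all genes higher by the same test. The single lower gene makes 2.17%, beside 14.7% of all genes lower. The members are brighter than most genes: their median mean level was 9.51 in Atxn3-WT MEFs and 9.99 in Atxn3-KO MEFs. Both lie far above the median of every array, and only 2 of the 46 members lay under the median on every array. Shares among genes of like level were not taken, here or below, so the part of level in these gaps was not tested. The counts by role given below divide these same 46 genes into small groups, and stand beside the same shares of all genes. All 3 Atxn3-KO arrays lay above all 3 Atxn3-WT arrays for 37 members (80.4%, against 25.3% of all genes) and below them for 2, Irf1 and Ifit2 (4.35%, against 23.9%). The median log2 fold change of the members was 0.38, within a range of -0.22 to 1.64, while that of all genes was 0.00208. Of the 34 members past the threshold, 14 changed by less than 0.5 on the log2 scale, 13 by 0.5 to 1 and 7 by at least 1. Those 7, Ifit3, Usp18, Irf7, Rtp4, Dhx58, Gbp2 and Iigp1, are the members that passed both of the study's own thresholds (adjusted p no higher than 0.001, change no smaller than 2-fold) upwards (15.2% of members, against 1.28% of all genes), and 0 passed them downwards (0.649% of all genes), with Irf1 the 1 member lower at an unadjusted p under 0.05. Because RNA was taken from whole cultures, more RNA per cell and more responding cells cannot be told apart.

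**Figure D1:**
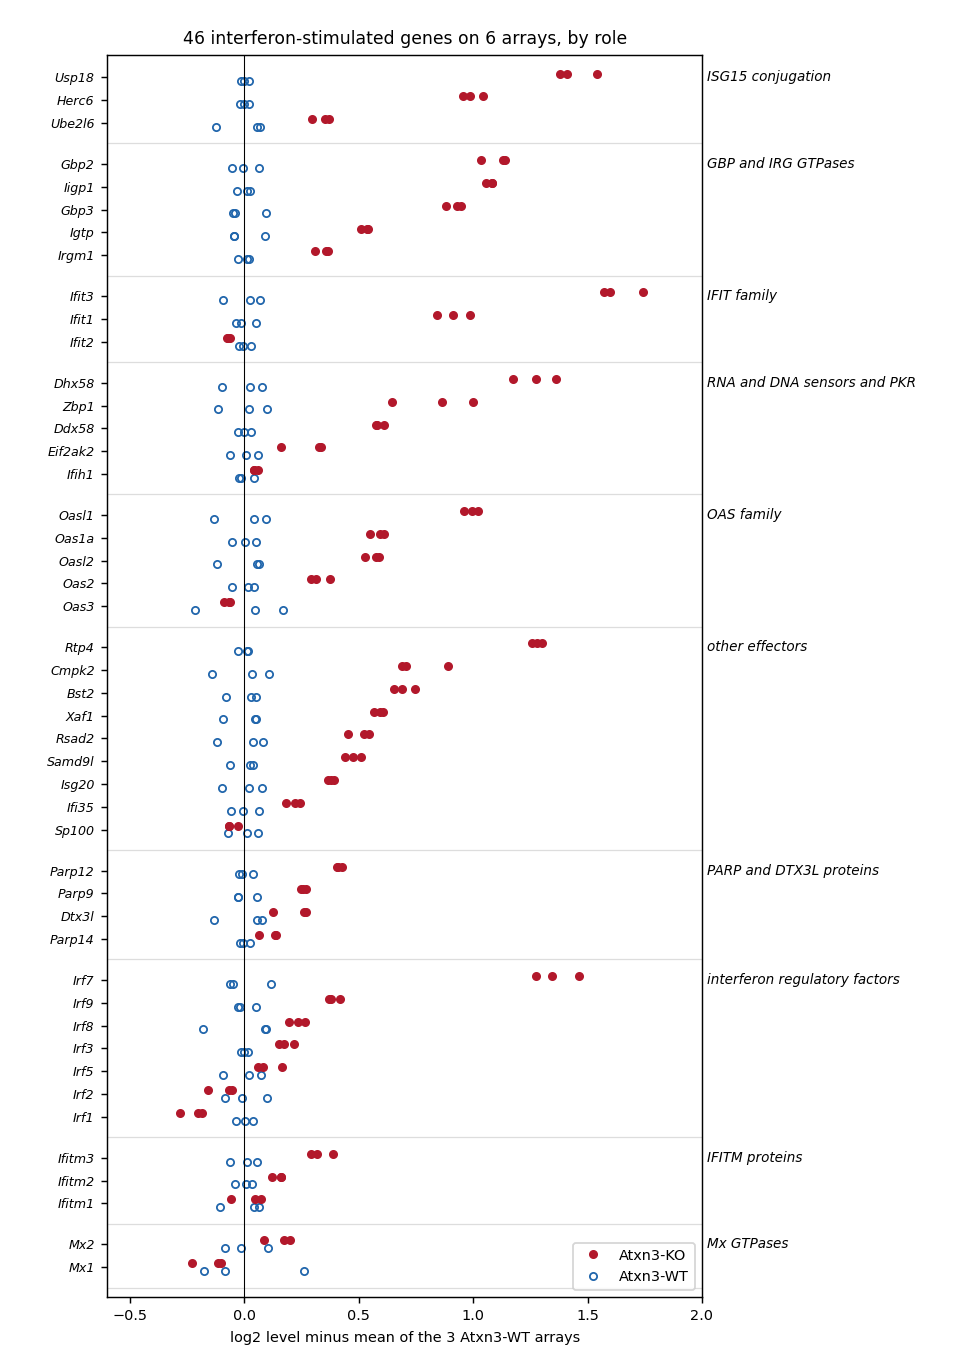
Each row is 1 of the 46 measured genes, grouped by role, and each point is 1 array, plotted as its log2 level minus the mean of the 3 Atxn3-WT arrays of that gene (filled red, Atxn3-KO; open blue, Atxn3-WT). Red points lie right of all blue points for 37 genes, farthest for Ifit3, and left of them for Irf1 and Ifit2.

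The promoters of several members hold letters of the response element that the interferon pathway uses, and some are shown because that element is the textbook link between the signal and these genes. Of the 46 measured members, 36 matched a promoter window in RefSeq (GRCm38.p6), which covers 250 bases before to 50 bases after the annotated start. The windows were searched on both strands for an ISRE-type core, GAAANNGAAA (GAAA repeated after 2 bases of any kind), and for the GAS letters TTCNNNGAA, counting overlapping matches. An ISRE-type match was present for 16 of the 36 members (44.4%), beside 3.99% of 27025 genes with a window (3.44% of all windows). A GAS match was present for 11 of the 36 (30.6%), beside 9.55% of genes, and in 2 of them, Bst2 and Ifitm3, it overlaps an ISRE-type match. The stretches below run 5′ to 3′ in the direction of transcription, with the ISRE-type matches in capitals (TTTC is GAAA on the other strand). The first 6 are of members that rose, the last 3 of members that did not pass the test.
Ifit3, chr19:34583353-34583436, plus strand: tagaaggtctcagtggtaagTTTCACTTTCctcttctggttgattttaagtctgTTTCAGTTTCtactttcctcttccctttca
Ifit1, chr19:34640765-34640833, plus strand: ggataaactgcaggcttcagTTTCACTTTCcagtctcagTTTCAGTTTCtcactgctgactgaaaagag
Gbp3, chr3:142559979-142560034, plus strand: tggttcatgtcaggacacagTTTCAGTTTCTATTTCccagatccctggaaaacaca
Gbp2, chr3:142620584-142620633, plus strand: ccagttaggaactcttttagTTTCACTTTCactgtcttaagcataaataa
Bst2, chr8:71537567-71537622, minus strand: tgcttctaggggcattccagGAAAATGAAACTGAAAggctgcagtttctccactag
Oas1a, chr5:120907526-120907565, minus strand: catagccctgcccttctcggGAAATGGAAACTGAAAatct
Ifih1, chr2:62646206-62646233, minus strand: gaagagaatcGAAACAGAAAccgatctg
Oas3, chr5:120777705-120777754, minus strand: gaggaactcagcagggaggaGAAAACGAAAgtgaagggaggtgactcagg
Irf2, chr8:46739495-46739533, plus strand: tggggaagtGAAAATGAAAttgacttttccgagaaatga

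Ifit3 and Ifit1 each hold a pair of separate matches, and in Gbp3, Bst2 and Oas1a a pair of matches shares a GAAA. The match of Ifih1 lies after the annotated start, and that of Irf2 at the far end of the window. Matches of Ddx58, Eif2ak2 and Ifitm3, which were higher in Atxn3-KO MEFs and are not printed, also lie after the start. Of the 16 members with a match, 13 were higher in Atxn3-KO MEFs and 3 did not pass, with a median log2 fold change of 0.52. Of the 20 members with a window and no match, 13 rose, 1 fell and 6 did not pass, with a median of 0.36. The 10 members without a window in the table, among them Usp18, Rtp4, Dhx58 and Iigp1, had a median of 0.58, with 7 higher and 3 not past the threshold. A match is a string of letters and not a bound site, and members such as Irf7, Herc6 and Oasl1 changed by 0.99 or more with no match in their windows.

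**Figure D2:**
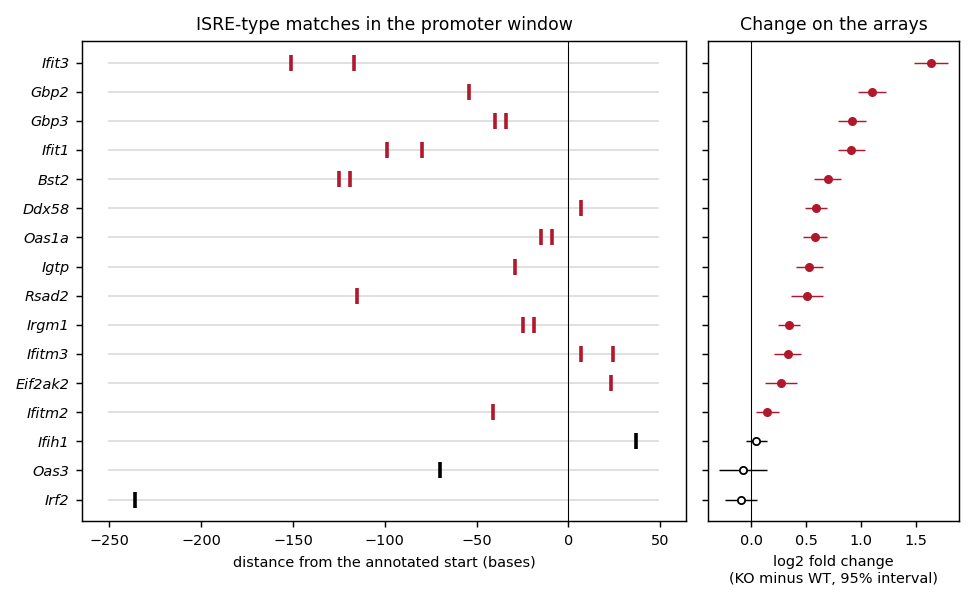
Left, the middle of each ISRE-type match in the promoter windows of the 16 members that have one, by distance in bases from the annotated start (0); right, the log2 fold change of the same gene with its 95% interval from limma. Red rows are the 13 members higher in Atxn3-KO MEFs and black rows, at the bottom, are Ifih1, Oas3 and Irf2, whose intervals include 0.

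The interferon regulatory factors (IRFs) are the transcription factors of the pathway, and they split. Of the 7, Irf7, Irf9 and Irf3 were higher in Atxn3-KO MEFs, Irf1 was lower, and Irf2, Irf5 and Irf8 did not pass. Irf7, which drives transcription of the interferon alpha and beta genes and is itself interferon-induced, read 9.96, 10.03 and 10.15 in the Atxn3-KO samples of replicates 1, 2 and 3, against 8.80, 8.62 and 8.63 in the Atxn3-WT samples. The groups are far apart, and the log2 fold change was 1.36 (standard error 0.071, adjusted p = 2.01e-05 in limma). Irf9, the DNA-binding subunit of the complex that binds ISREs, had levels of 10.31, 10.26 and 10.27 in Atxn3-KO MEFs and 9.86, 9.87 and 9.94 in Atxn3-WT MEFs, a smaller but separate shift of 0.39 (standard error 0.044, adjusted p = 0.000763). Irf1, an activator that responds strongly to interferon gamma, was the one member that fell: its levels were 10.92, 10.94 and 10.85 in Atxn3-KO MEFs, all below the 11.16, 11.09 and 11.13 of Atxn3-WT MEFs (log2 fold change -0.22, standard error 0.047, adjusted p = 0.0119).

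Irf3, the factor activated directly by RNA and DNA sensing, gave mixed readings. Its brightest probe set read 9.82, 9.80 and 9.86 in Atxn3-KO MEFs against 9.64, 9.63 and 9.66 in Atxn3-WT MEFs, 0.18 apart (standard error 0.042, adjusted p = 0.0182), but that probe set is of the _x_at kind, which can hybridize to other transcripts. The other Irf3 probe sets gave 0.24 (adjusted p = 0.0219), 0.03 (adjusted p = 0.765) and -0.24 (adjusted p = 0.111), so the direction of Irf3 rests on the probe set. Irf8, best known from myeloid cells, read 7.42, 7.36 and 7.39 in Atxn3-KO MEFs and 7.25, 6.98 and 7.25 in Atxn3-WT MEFs. Its groups were separate, yet replicate 2 lay well below the other Atxn3-WT samples and the change of 0.23 (95% interval 0.04 to 0.42) did not pass (adjusted p = 0.0734). Irf5, which acts after Toll-like receptor signalling, had 7.96, 8.07 and 7.98 in Atxn3-KO MEFs and 7.81, 7.92 and 7.98 in Atxn3-WT MEFs, overlapping groups with a difference of 0.10 (95% interval -0.04 to 0.24, adjusted p = 0.265). Irf2, which competes with Irf1 for the same sites, also overlapped, with 9.56, 9.55 and 9.46 in Atxn3-KO MEFs and 9.53, 9.61 and 9.72 in Atxn3-WT MEFs (difference -0.09, 95% interval -0.24 to 0.05, adjusted p = 0.331). The Irf2 probe set is of the _s_at kind, which can read more than 1 transcript.

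Among the RNA and DNA sensors, 4 of 5 were higher in Atxn3-KO MEFs. Dhx58, which encodes LGP2, a helicase that modulates RIG-I-like receptor signalling, read 8.85, 9.04 and 8.95 in Atxn3-KO MEFs, against 7.70, 7.58 and 7.76 in Atxn3-WT MEFs (log2 fold change 1.27, standard error 0.068, adjusted p = 2.30e-05). Zbp1, a sensor of Z-form nucleic acids that can trigger necroptosis, read 6.23, 6.44 and 6.58 in Atxn3-KO MEFs, against 5.68, 5.46 and 5.60 in Atxn3-WT MEFs. The Zbp1 arrays were the most scattered of this group, and the change of 0.84 (standard error 0.097, adjusted p = 0.000842) still exceeded their spread. The other Zbp1 probe set gave a smaller change of 0.40 (adjusted p = 0.0311 in limma). It was the brighter one in Atxn3-WT MEFs (mean 5.67 against 5.58) but not in Atxn3-KO MEFs (6.07 against 6.42). Ddx58, the gene for the RNA sensor RIG-I, was tightly grouped, with 10.14, 10.13 and 10.17 in Atxn3-KO MEFs and 9.59, 9.56 and 9.53 in Atxn3-WT MEFs, and rose by 0.59 (standard error 0.042, adjusted p = 8.80e-05). Eif2ak2, which encodes the RNA-activated kinase PKR that halts translation, changed by 0.27 (adjusted p = 0.0178), but neither of its dimmer probe sets passed (0.14 and 0.16). Ifih1, which encodes the long-RNA sensor MDA5 and belongs to the same receptor family as RIG-I and LGP2, read 10.27, 10.28 and 10.29 in Atxn3-KO MEFs and 10.22, 10.21 and 10.27 in Atxn3-WT MEFs, a difference of 0.05 (95% interval -0.05 to 0.15, adjusted p = 0.47). The interval of Ifih1 ends well short of the lower bounds of Dhx58 and Ddx58.

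The IFIT proteins bind RNA and block its translation, and the 3 family genes did not move together. Ifit3 had levels of 9.34, 9.51 and 9.37 in Atxn3-KO MEFs and 7.84, 7.68 and 7.80 in Atxn3-WT MEFs, and no measured member had a higher log2 fold change (1.64, standard error 0.066, adjusted p = 5.88e-06). On the linear scale this is 3.11-fold. Ifit1, which recognises capped RNA lacking the methyl marks of host mRNA, read 10.66, 10.73 and 10.80 in Atxn3-KO MEFs, against 9.87, 9.78 and 9.80 in Atxn3-WT MEFs (log2 fold change 0.91, standard error 0.053, adjusted p = 3.53e-05). Ifit2, on the same stretch of chromosome 19, had 9.99, 10.01 and 9.996 in Atxn3-KO MEFs and 10.05, 10.06 and 10.10 in Atxn3-WT MEFs. Its arrays were slightly lower in Atxn3-KO MEFs, with a difference of -0.07 that did not pass (95% interval -0.17 to 0.02, adjusted p = 0.261).

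ISG15 is coupled to target proteins by its own small enzyme cascade and removed again by a protease. All 3 measured genes listed for coupling or removal were higher in Atxn3-KO MEFs. Usp18, the protease that removes ISG15 and also restrains signalling at the interferon receptor, read 11.06, 11.09 and 11.22 in Atxn3-KO MEFs, against 9.66, 9.69 and 9.67 in Atxn3-WT MEFs. It changed by 1.44 on the log2 scale (standard error 0.054, adjusted p = 4.55e-06), the second highest of the members. Herc6, the ISG15 ligase of mouse cells, had 9.21, 9.15 and 9.12 in Atxn3-KO MEFs and 8.19, 8.15 and 8.17 in Atxn3-WT MEFs (log2 fold change 0.99, standard error 0.044, adjusted p = 9.58e-06), and its other 3 probe sets gave 0.45 to 0.84, all past the threshold. Ube2l6, the conjugating enzyme, rose by 0.34 (standard error 0.063, adjusted p = 0.00685).

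The interferon-inducible GTPases of the guanylate-binding (GBP) and immunity-related (IRG) families gather on the vacuoles of intracellular pathogens, and all 5 measured genes were higher in Atxn3-KO MEFs. Gbp2 read 10.01, 10.11 and 10.11 in Atxn3-KO MEFs, against 9.04, 8.92 and 8.97 in Atxn3-WT MEFs (log2 fold change 1.10, standard error 0.053, adjusted p = 1.42e-05). This is an _x_at probe set, and the second Gbp2 probe set, which is not, gave 1.07. For Iigp1 the levels were 9.47, 9.49 and 9.49 in Atxn3-KO MEFs and 8.42, 8.38 and 8.43 in Atxn3-WT MEFs, and its 2 probe sets gave 1.07 (standard error 0.041, adjusted p = 4.92e-06) and 1.05. Gbp3 had 10.40, 10.34 and 10.38 in Atxn3-KO MEFs and 9.55, 9.40 and 9.41 in Atxn3-WT MEFs (log2 fold change 0.92, standard error 0.054, adjusted p = 3.83e-05). The changes of Igtp and Irgm1 were smaller. Igtp had 10.61, 10.64 and 10.64 in Atxn3-KO MEFs and 10.19, 10.05 and 10.06 in Atxn3-WT MEFs (log2 fold change 0.53, standard error 0.052, adjusted p = 0.000403), and Irgm1, a regulator of the other IRG proteins, changed by 0.34 (adjusted p = 0.00111).

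Oligoadenylate synthetases (OAS) answer double-stranded RNA by making the messenger that activates RNase L, and OAS-like genes encode their relatives. Of the 5 genes, 4 were higher in Atxn3-KO MEFs. Oasl1, reported in mouse cells as a translational inhibitor of Irf7, read 8.85, 8.82 and 8.88 in Atxn3-KO MEFs, against 7.95, 7.72 and 7.90 in Atxn3-WT MEFs (log2 fold change 0.99, standard error 0.066, adjusted p = 6.33e-05). Oas1a, a synthetase, had 10.59, 10.63 and 10.65 in Atxn3-KO MEFs and 10.09, 9.99 and 10.04 in Atxn3-WT MEFs (log2 fold change 0.58, standard error 0.047, adjusted p = 0.000154). Close to it was Oasl2, with 10.09, 10.16 and 10.14 in Atxn3-KO MEFs, 9.63, 9.45 and 9.62 in Atxn3-WT MEFs and a change of 0.56 (standard error 0.060, adjusted p = 0.000583). Oas2 rose by 0.33 (adjusted p = 0.00248). Oas3 lay under the median of every array, with 5.50, 5.47 and 5.49 in Atxn3-KO MEFs and 5.34, 5.60 and 5.73 in Atxn3-WT MEFs, overlapping groups that differed by -0.07 (95% interval -0.29 to 0.15, adjusted p = 0.634). The Atxn3-WT readings of Oas3 spread more widely than those of the other OAS genes.

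The Mx genes encode dynamin-like GTPases that block virus replication, and neither passed the test. Mx2 had 6.77, 6.74 and 6.66 in Atxn3-KO MEFs and 6.48, 6.67 and 6.56 in Atxn3-WT MEFs, a difference of 0.15 (95% interval 0.01 to 0.30, adjusted p = 0.123). Mx1 read 4.35, 4.37 and 4.24 in Atxn3-KO MEFs and 4.39, 4.30 and 4.73 in Atxn3-WT MEFs (difference -0.15, 95% interval -0.41 to 0.11, adjusted p = 0.387). These Mx1 readings lie around the 25th percentile of the arrays, where a change may not be detectable, and the Mx1 interval is wide.

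The other effectors act on many steps of infection, and 8 of the 9 measured were higher in Atxn3-KO MEFs. Rtp4, a receptor transporter protein with antiviral activity, read 11.40, 11.42 and 11.45 in Atxn3-KO MEFs, against 10.16, 10.12 and 10.16 in Atxn3-WT MEFs (log2 fold change 1.28, standard error 0.041, adjusted p = 2.46e-06). Cmpk2, a mitochondrial nucleotide kinase, and Rsad2, which encodes viperin, an enzyme that makes a chain-terminating nucleotide, are neighbours on chromosome 12. Cmpk2 read 7.46, 7.44 and 7.64 in Atxn3-KO MEFs, against 6.86, 6.62 and 6.79 in Atxn3-WT MEFs (log2 fold change 0.76, standard error 0.082, adjusted p = 0.000604). Its dimmer probe set gave a smaller change of 0.31 (adjusted p = 0.0300 in limma). Rsad2 read 9.57, 9.59 and 9.50 in Atxn3-KO MEFs, against 9.13, 8.93 and 9.09 in Atxn3-WT MEFs (log2 fold change 0.51, standard error 0.063, adjusted p = 0.00115). Both neighbours moved up with no overlap between the groups.

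Bst2, which encodes tetherin, a protein that holds budding virions on the cell surface, had 11.40, 11.44 and 11.49 in Atxn3-KO MEFs and 10.78, 10.67 and 10.80 in Atxn3-WT MEFs (log2 fold change 0.70, standard error 0.053, adjusted p = 0.000125). Xaf1, an antagonist of the apoptosis inhibitor XIAP, had 10.64, 10.65 and 10.61 in Atxn3-KO MEFs and 10.09, 9.95 and 10.09 in Atxn3-WT MEFs, a rise of 0.59 (standard error 0.053, adjusted p = 0.000254). Samd9l, a restriction factor for poxviruses, had 10.62, 10.56 and 10.59 in Atxn3-KO MEFs and 10.14, 10.15 and 10.05 in Atxn3-WT MEFs (log2 fold change 0.47, standard error 0.048, adjusted p = 0.000426). These genes changed by less than 2-fold, and their groups did not overlap. The exonuclease gene Isg20 read 9.31, 9.29 and 9.28 in Atxn3-KO MEFs, against 8.93, 8.82 and 8.99 in Atxn3-WT MEFs (log2 fold change 0.38, standard error 0.055, adjusted p = 0.00219). Ifi35 rose by 0.22 on an _s_at probe set (adjusted p = 0.0162). Sp100, a component of nuclear bodies, differed by -0.05 (95% interval -0.17 to 0.06, adjusted p = 0.48).

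PARP proteins attach ADP-ribose to their targets, and PARP9 works as a complex with the ubiquitin ligase DTX3L. Parp12 was the clearest of this group, with 10.999, 10.98 and 10.98 in Atxn3-KO MEFs and 10.55, 10.61 and 10.56 in Atxn3-WT MEFs (log2 fold change 0.41, standard error 0.042, adjusted p = 0.000427). Parp9 rose by 0.26 (adjusted p = 0.00497). Its partner Dtx3l differed by 0.22 on the brighter probe set, which did not pass (adjusted p = 0.0651), and rose by 0.20 on the other, which did (adjusted p = 0.0231). Parp14 did not pass, at 0.11 (95% interval 0.01 to 0.21, adjusted p = 0.115). The IFITM proteins stop viruses from fusing with endosomal membranes. Ifitm3 rose by 0.33 (standard error 0.051, adjusted p = 0.00297) and Ifitm2 by 0.15 (adjusted p = 0.0438), the smallest change among the members called, while Ifitm1 differed by 0.02 (95% interval -0.13 to 0.17, adjusted p = 0.863). The Ifitm2 call was lost under 8 of the other settings tried, the omission of any 1 array among them.

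**Figure D3:**
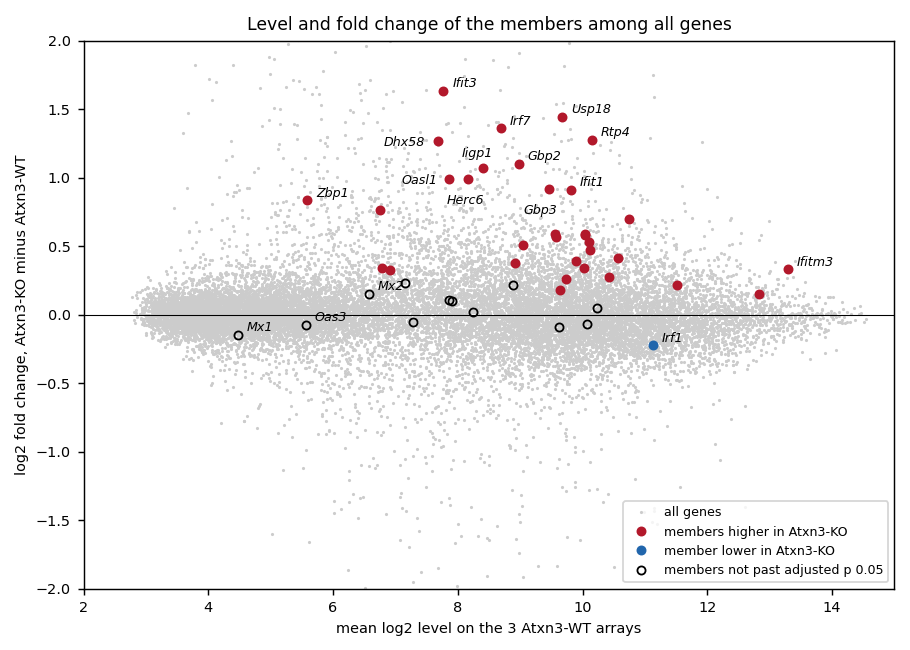
Each point is 1 gene, plotted by its mean log2 level on the 3 Atxn3-WT arrays and its log2 fold change, Atxn3-KO minus Atxn3-WT; grey points are all 18193 genes (62 with changes beyond 2 in size are not shown), and the 46 measured members are drawn larger. Filled red members (33) lie above 0, filled blue Irf1 lies at -0.22, and the 12 open members did not pass an adjusted p of 0.05.

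Several genes are read by more than 1 probe set, which gives a second reading of the same RNA. The 46 members have 73 probe sets naming them alone, of which 47 rose, 1 fell and 25 did not pass, where 14.5% of all 34945 probe sets naming 1 gene alone were higher and 15.3% lower. Among the 27 that were not the brightest of their gene, 14 were higher, 0 lower (1, of Irf3, at an unadjusted p under 0.05) and 13 not past the threshold. Of all 16752 such dimmer probe sets, 11.6% were higher and 16% lower. Of the 18 members with several probe sets, 10 had the same call on each and 8 did not, and Irf3 alone had readings of both signs. Dimmer probe sets could give smaller changes: those of Dhx58 gave 0.91 and 0.21, against 1.27 on the brightest, and those of Ddx58 gave 0.50 and 0.17, against 0.59. The dimmer probe set of Xaf1 missed the threshold, at 0.14, and of the 2 of Rsad2 one missed it, at 0.24, and the other passed, at 0.42.

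**Figure D4:**
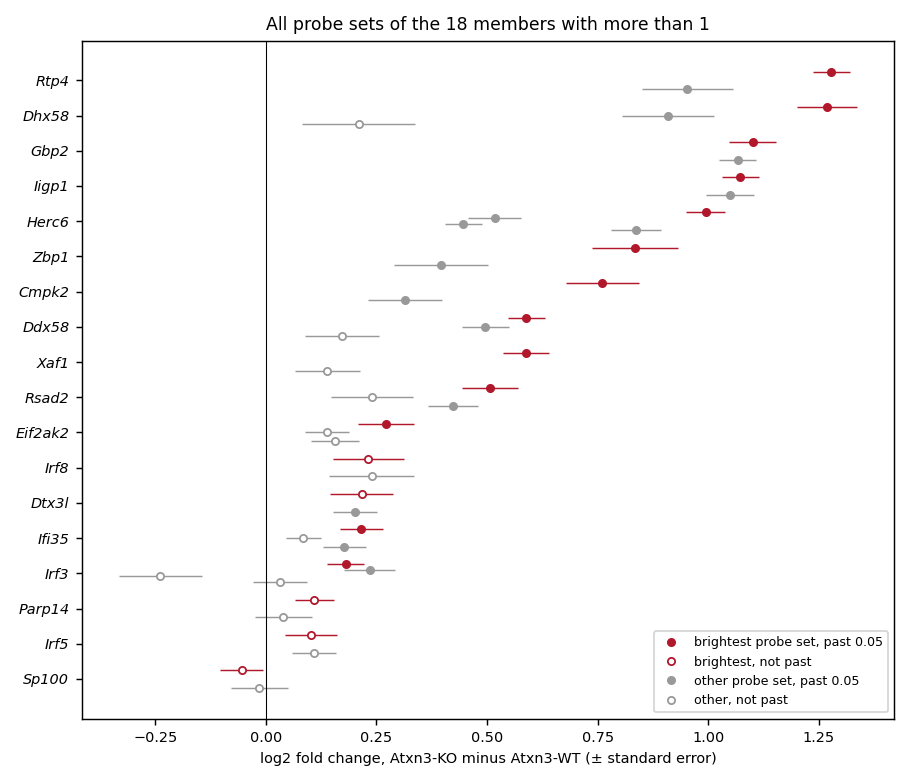
Log2 fold changes (Atxn3-KO minus Atxn3-WT) with standard errors for every probe set of the 18 members that have more than 1, the brightest in red and the others in grey; filled points passed an adjusted p of 0.05. All points lie right of 0 except those of Sp100 and 1 dim probe set of Irf3 at -0.24.

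The Atxn3-WT arrays were not equal for these genes. Atxn3-WT replicate 2 gave the lowest of the 3 Atxn3-WT readings for 34 of the 46 members, while it was lowest for 38.7% of all genes. Among the Atxn3-KO arrays, replicate 1 was lowest for 18 members, against 37.5% of all genes, and the others for 14 each. The median member lay 0.05 below the Atxn3-WT mean in that sample (-0.0492), against 0.03 and 0.02 above it in replicates 1 and 3, while the Atxn3-KO samples lay 0.41, 0.37 and 0.38 above it. The spread of that median within either genotype was smaller than the shift between them. Without that sample 29 members were higher and 1 was lower, with a median log2 fold change of 0.36, beside 14% of all genes higher.

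Further genes of the interferon pathway were counted from lists of ligands, receptors, signal transducers, sensing adaptors and other induced genes. Of 19 interferon genes, 10 could be measured and 0 passed in limma, with 0 at an unadjusted p under 0.05; 8 of the 10 lay under the median of every array. Ifnb1, the interferon that fibroblasts secrete, read 5.12, 5.19 and 5.32 in Atxn3-KO MEFs and 5.38, 5.03 and 5.01 in Atxn3-WT MEFs, overlapping groups with a difference of 0.07 (95% interval -0.18 to 0.31). Ifng, made by lymphocytes, had means of 3.43 in Atxn3-KO MEFs and 3.50 in Atxn3-WT MEFs. At such levels a difference in ligand RNA may not be detectable.

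Of 15 measured receptors and transducers, 4 were higher and 1 was lower in Atxn3-KO MEFs. Socs1, an interferon-induced inhibitor of JAK kinases, read 7.09, 7.16 and 7.14 in Atxn3-KO MEFs, against 6.51, 6.17 and 6.53 in Atxn3-WT MEFs (log2 fold change 0.73, standard error 0.098, adjusted p = 0.00159). Atxn3-WT replicate 2 was again the lowest. The kinase gene Jak2 rose by 0.38, the interferon lambda receptor gene Ifnlr1 by 0.29 and Il10rb, which encodes its partner chain, by 0.20, while Ifnar2, a chain of the type I receptor, was lower (-0.14, adjusted p = 0.0439). Of 12 measured sensing adaptors and kinases, 1 was higher, 4 were lower and 7 did not pass, with a median log2 fold change of -0.0095. Tlr3, an endosomal receptor for double-stranded RNA, read 7.24, 7.19 and 7.28 in Atxn3-KO MEFs, against 7.88, 7.71 and 7.83 in Atxn3-WT MEFs (log2 fold change -0.57, adjusted p = 0.000462). Tank, Traf6 and Mavs, which relay signals from sensors to IRF3 and NF-kappaB, were also lower (-0.49, -0.21 and -0.16), and the adaptor Myd88 was higher (0.21). The 4 receptors and transducers that rose make 26.7% of a short list, beside 17.1% of all genes, and the 4 sensing genes that fell make 33.3%, beside 14.7%. Stat2, which also stands in the wider list of induced genes, did not pass (adjusted p = 0.0581).

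Of 62 other interferon-induced genes that could be measured, 26 were higher in Atxn3-KO MEFs (41.9%, beside 17.1% of all genes). A further 7 were lower (11.3%, beside 14.7% of all genes), and the median log2 fold change of the 62 was 0.13. Ifi27l2a, whose human relatives are classical interferon markers, read 10.01, 10.01 and 10.03 in Atxn3-KO MEFs, against 8.54, 8.55 and 8.75 in Atxn3-WT MEFs (log2 fold change 1.41, adjusted p = 9.89e-06). It lies on chromosome 12, with 31 annotated genes between it and Atxn3. Ifi27, a related gene of the same list with 32 genes between, read 12.65, 12.68 and 12.65 in Atxn3-KO MEFs, against 12.34, 12.25 and 12.30 in Atxn3-WT MEFs (log2 fold change 0.36, adjusted p = 0.00108). The part of this position in either result was not tested; the members Cmpk2 and Rsad2 lie on that chromosome with 1119 and 1120 genes between. Ripk3, a kinase of necroptosis, fell to 8.76, 8.87 and 8.85 in Atxn3-KO MEFs, against 10.05, 10.10 and 10.17 in Atxn3-WT MEFs (log2 fold change -1.28, adjusted p = 6.33e-06). Casp4, the mouse caspase that senses bacterial lipopolysaccharide, fell by a like amount (-1.28, adjusted p = 3.47e-06). The chemokine genes Cxcl9 and Ccl5, which attract T cells, were higher. Cxcl9 read 6.32, 6.29 and 6.36 in Atxn3-KO MEFs, against 5.07, 5.17 and 5.10 in Atxn3-WT MEFs (log2 fold change 1.21), and Ccl5 read 11.74, 11.74 and 11.77 in Atxn3-KO MEFs, against 10.65, 10.51 and 10.59 in Atxn3-WT MEFs (1.16). Cxcl10, a further chemokine gene of this kind, was lower (-0.36, adjusted p = 0.00129).

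**Figure D5:**
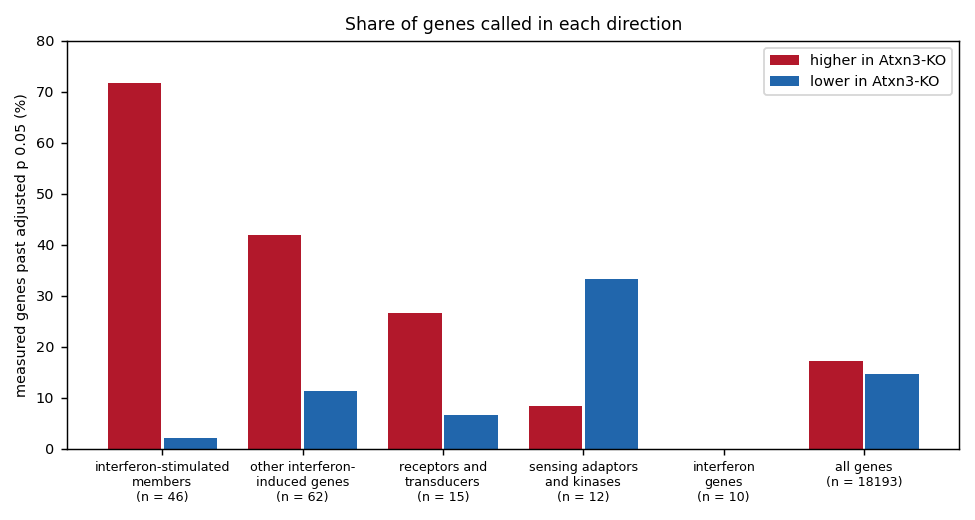
Bars give the percent of measured genes past an adjusted p of 0.05 in limma, higher (red) or lower (blue) in Atxn3-KO MEFs, for the 46 members, 4 other lists of the interferon pathway and all 18193 genes. The members stand at 71.7% higher and 2.17% lower, all genes at 17.1% and 14.7%, and the interferon genes at 0 in both directions.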

How the data were processed

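Expression was measured on 6 arrays, 3 from Atxn3-KO and 3 from Atxn3-WT MEFs, with groups taken from the labels. The log2 values that the authors deposited had been normalized by robust multi-array average (RMA), which corrects background, makes the array distributions alike and summarizes each probe set, so it would hide a change shared by every gene. The methods name the affy, affyPLM and limma packages and a weighted linear model whose weights are not given in the sources used here. Versions and the genome build are not given either.

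From the deposited values, limma 3.58.1 in R 4.3.3 fitted the difference between Atxn3-KO and Atxn3-WT (lmFit, eBayes), all arrays weighing the same. The Benjamini-Hochberg adjustment ran over 45037 probe sets, without the 64 controls and with no minimum level. Of the 34945 probe sets that name 1 gene in the platform annotation, 34741 matched a RefSeq gene of GRCm38.p6, and 0 changed symbol. Adjusted p-values in the text come from this fit. On simulated data for this comparison over 45037 probe sets, 91% of changes of 0.5 and 100% of changes of 1 on the log2 scale were recovered at an adjusted p under 0.05. There were 13 false calls. The simulation used independent noise and changed a far smaller share of probe sets than passed in the data. It tried no change under 0.5, so recovery of smaller changes is not known. The number of arrays limits the precision.

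The members and the other gene lists were chosen with earlier results of these data known. Values on every array were given for up to 24 members with the largest change past 0.05, for every IRF, and for the brightest gene of a role with none past it, with others added after their values were seen (Ifih1, Ifit2, Oas3 and Mx1). From the other interferon lists up to 5 genes each with the largest change were named; Ifnb1, Ifng, Cxcl10 and Ifi27 were added after their values were seen. Promoter sequences are from RefSeq, and those printed were picked by hand among members with a match. Alternatives covered weights for arrays, the replicate number as a block, median centring and quantile normalization, level filters, variance trends, other rules for the probe set of a gene, and each array left out in turn.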

Additional observations from a re-analysis of the deposited data

How the results depend on the processing

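The direction of the member changes held in the settings tried, with few exceptions. The count of members higher in Atxn3-KO MEFs was 33 and ran from 29 to 31 when 1 array was left out, lowest without Atxn3-WT replicate 2, and from 32 to 36 otherwise. The count lower, Irf1, stayed at 1. The count past 2-fold was 7 (6 to 9 in other settings, and 7 to 9 without 1 array) but 3 when limma's treat tested against a 2-fold change itself, which asks for more than an estimate above it. The median log2 fold change was 0.38, ran from 0.36 to 0.41 without 1 array, and was 0.40 without probe sets under the median level, which leaves 44 members.

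With the replicate block, 32 members were higher, 1 was lower, 7 were past 2-fold, and the median was 0.38; only Ifitm2 lost its call. For same-numbered samples, the correlations of their deviations from the group means were 0.02, -0.02 and -0.04. With 3 samples per group these values cannot show whether such samples were prepared together, which the labels do not say. The main fit was planned without the block.

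Of the 34 members called, 30 kept direction and call in every alternative that measured them. The other 4 lost the call without some arrays, which leaves fewer samples: Eif2ak2 (0.24 to 0.33) without Atxn3-KO replicate 1 or 2 or Atxn3-WT replicate 2 or 3, Ifi35 (0.19 to 0.25) without Atxn3-KO replicate 2 or Atxn3-WT replicate 1 or 2, Irf3 (0.16 to 0.19) without Atxn3-KO replicate 3 or Atxn3-WT replicate 1 or 2, and Ifitm2 (0.13 to 0.17) without any 1 array. Ifitm2 also lost it after quantile normalization and with the replicate block, and Irf3 with the mean of its probe sets. Irf8, Dtx3l and Parp14 passed in 4, 6 and 1 of the alternatives, always upwards. The sign of Irf3 turned with its most variable probe set (-0.24). Members near 0 also turned: without 1 array Oas3 ran from -0.18 to 0.012 and Ifitm1 from -0.033 to 0.059, and Ifitm1 was -0.00264 after quantile normalization. The cause was not tested. Mx1, Oas3 and 8 of the 10 measured interferon genes lay under the median of every array, where a change may not be detectable; background itself was not measured.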
